A study of Mus musculus with 4 samples.

Results

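Immunoglobulin transcripts were followed with 20 of the 23309 probe sets of a mouse whole-transcript array, in the spleens of 2 leukaemic and 2 wild type mice. A probe set was included when any gene symbol that the platform annotation gives it was a heavy chain, kappa or lambda variable (V), diversity, joining (J) or constant (C) gene. The 2 leukaemic mice were RBP-J flox/flox with cre at both Ren1d alleles (Ren1d cre/cre), aged 107 and 93 days, and their spleens weighed 0.7 g and 0.47 g. The 2 wild type mice were RBP-J flox/flox with unmodified Ren1d (Ren1d +/+), aged 80 and 81 days, and their spleens weighed 0.12 g and 0.16 g. The 4 mice were all of the 129Sv strain and carried the floxed RBP-J alleles, so the labelled genotypes differ in cre at the renin locus. Leukaemic replicate 2 was the male among 3 females, and 1 array was made from the total RNA of each spleen. Because cre stood at both Ren1d alleles, the leukaemic mice also differed from wild type in that locus itself. The groups also had no age and no spleen weight in common, and the part of either cannot be told apart from that of the leukaemia.

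An antibody, or its membrane form the B cell receptor, is built of heavy and light chains, each with a variable domain assembled from V, J and, in the heavy chain, D segments, joined to a constant region. Developing B cells rearrange the heavy chain locus first and pair its product with a surrogate light chain before a kappa or lambda light chain replaces it. Mature B cells of the spleen carry surface IgM and IgD, and plasma cells, which secrete antibody, hold very large amounts of immunoglobulin mRNA. In mice most antibodies carry kappa light chains, and IgG3 and IgA are made after class switching.

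Of the 20 probe sets, 6 were heavy chain sets, 12 kappa and 2 lambda. All 6 heavy chain sets carried a constant gene symbol: Ighm (the mu chain of IgM) on 2 sets, Igha (the alpha chain of IgA) on 1, Ighg3 (the gamma chain of IgG3) on 1, Ighv3-6 with Igha on 1, and Ighg3, Igha, Ighv1-33 and Ighv1-26 together on 1. Igkc, the kappa constant gene, was named on 3 kappa sets, each time beside several V genes of the Igkv4 family, and 9 kappa sets had no constant gene symbol. Both lambda sets carried Iglc1, the lambda 1 constant gene, with Iglv1 and Iglv2. A single symbol stood on 7 sets and several on 13, and 12 sets shared at least 1 annotated sequence accession with another of the 20. Such sets can read the same transcripts, and near-identical V genes cannot be told apart by them, so they are not independent measurements of different genes. Of 29 symbols on these sets, 28 were found by gene identifier in a gene table of assembly GRCm38.p6, which places the heavy chain genes on chromosome 12, the kappa genes on chromosome 6 and the lambda genes on chromosome 16. The exception was Igk-V21, and Map3k20, a protein kinase gene of chromosome 2, shares 2 kappa sets with V genes. Only 3 heavy chain and 16 kappa V genes or V pseudogenes, out of 183 and 162 in that table, were named on any of the 20 sets, so most V genes were not followed here.

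The same platform values placed the labelled spleens as follows. Cd79a and Cd79b, the signalling chains of the B cell receptor, lay between 12.28 and 12.91 (log2) on all 4 arrays. Array medians were 7.96 on both leukaemic arrays and 8.03 and 8.02 on the wild type arrays. Wild type replicate 2 also held exocrine pancreas transcripts: the mean of 9 acinar genes was 11.82 there, against 6.54 to 6.63 on the other arrays. Over all 23309 probe sets, limma (Benjamini-Hochberg adjusted p under 0.05) called 253 higher and 138 lower in leukaemic spleen. After each array was centred on its median the counts were 332 and 106, which is 75.8% higher against 64.7% as deposited, and after quantile normalization 75 and 13 (85.2% higher).

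Immunoglobulin signal in leukaemic replicate 1 was below that of both wild type mice on 19 of the 20 probe sets, and that of leukaemic replicate 2 lay on either side of wild type. On the 19 sets, leukaemic replicate 1 was 1.31-fold to 4.53-fold below the wild type mean, with a median of 2.55-fold. Over all 20 sets its median difference from the wild type mean was -1.32 (log2), and that of leukaemic replicate 2 was -0.052. Over all probe sets of the array the same medians were -0.015 and -0.045. Leukaemic replicate 2 was below both wild type mice on 9 sets, between them on 5 and above both on 6. Among all 23309 probe sets its counts were 9003 below both, 7237 between and 7069 above both. Leukaemic replicate 1 was below both wild type mice on 7977 of the 23309. The array reads the whole spleen, so fewer cells of a type and less RNA per cell cannot be told apart in any of these values.

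**Figure D1:**
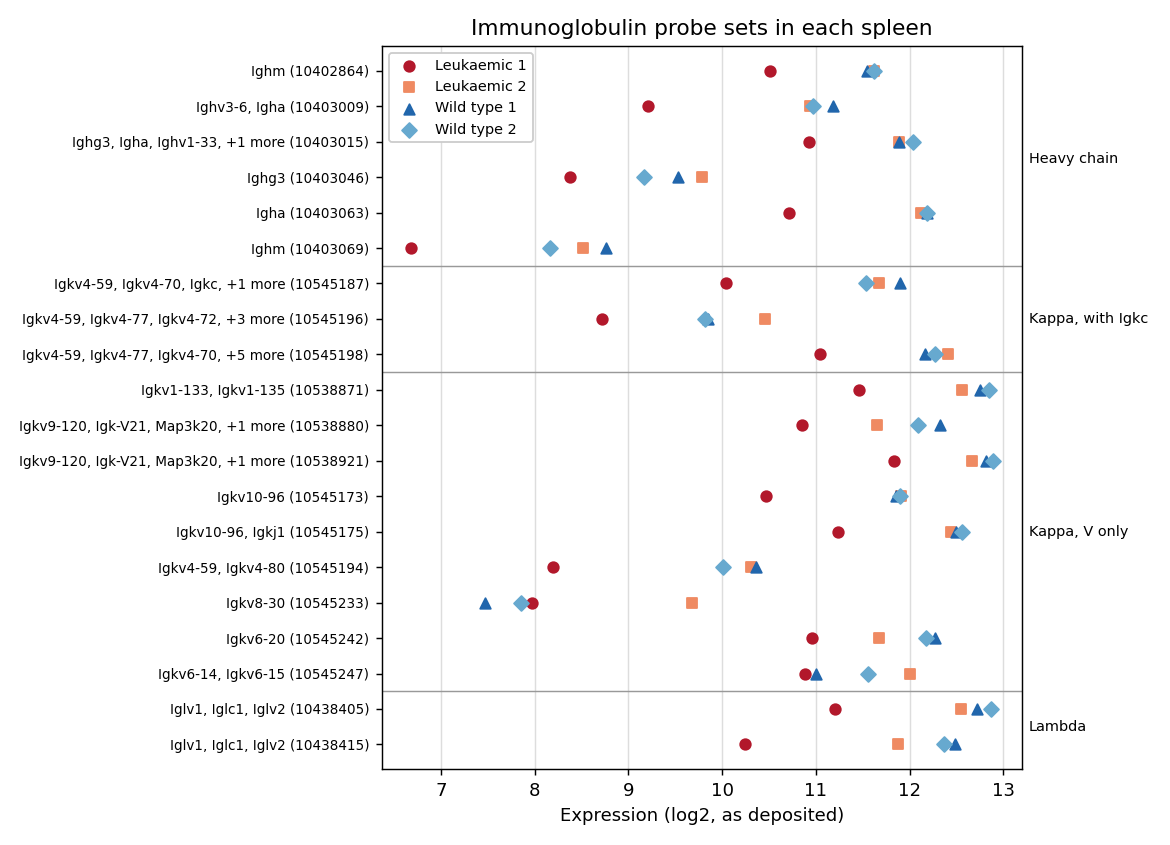
Deposited log2 expression of the 20 immunoglobulin probe sets, grouped by chain and region, with 1 point per mouse. Leukaemic replicate 1 is the lowest point on 19 of 20 rows, Igkv8-30 being the exception, while leukaemic replicate 2 lies below both wild type points on 9 rows, between them on 5 and above both on 6.

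None of the 20 probe sets passed the test between the groups, in either direction. The background was 1.09% of all probe sets called higher and 0.592% called lower, shares at which 20 probe sets would hold less than 1 call in each direction. At an unadjusted p under 0.05, limma had 3 of the 20 lower and 0 higher. The background at that level was 2293 of the 23309 probe sets lower (9.84%) and 2316 higher. Adjusted p over the 20 lay between 0.11 and 0.89. The median difference between groups was -0.73 (log2) over the 20 sets, against -0.028 over all probe sets, with 18 sets lower and 2 higher in the leukaemic mean. Without wild type replicate 2, the array with the pancreas transcripts, that median over the 20 sets was -0.71. Standard errors ran from 0.24 to 0.61, because the SD between the 2 leukaemic mice had a median of 0.98 over the 20 sets, against 0.089 between the 2 wild type mice. Over all probe sets these median SDs were 0.087 and 0.14. With 2 mice a group, an exact permutation test of a single probe set cannot give a two-sided p below 0.333. That no set was called does not show that the groups had equal levels.

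The outcome of the test rested on which leukaemic mouse was in it. Without leukaemic replicate 2, limma called 18 of the 20 lower, against 2.71% of all probe sets. Without leukaemic replicate 1 it called 0 lower, against 0.845% of all probe sets, and 1 higher, against 1.27%. Both fits keep 1 leukaemic array, take its spread to be that of the wild type mice, and pool that spread fully over all probe sets. They therefore describe how far each spleen stood from the wild type pair and are no test of a leukaemic group.

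The IgM heavy chain, the first isotype a B cell makes, was read by 2 probe sets. Ighm set 10402864 had 10.52 and 11.62 in leukaemic replicates 1 and 2, against 11.55 and 11.62 in wild type replicates 1 and 2 (log2). Only leukaemic replicate 1 stood apart, with a difference of -1.07 from the wild type mean, while leukaemic replicate 2 lay between the wild type mice. The group difference was -0.52 (SE 0.33, limma adjusted p = 0.48). Ighm set 10403069, much dimmer, had 6.68 and 8.52 in leukaemic replicates 1 and 2, against 8.76 and 8.16 in wild type replicates. Leukaemic replicate 1 was again the lowest and leukaemic replicate 2 again lay between the wild type mice, with a group difference of -0.86 (SE 0.55, limma adjusted p = 0.48). The 2 Ighm sets share 1 annotated accession and differ in how far leukaemic replicate 1 fell short, 2.10-fold on the brighter and 3.43-fold on the dimmer one.

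Switched isotypes showed the same split between the leukaemic mice. Igha, the heavy chain of the mucosal antibody IgA, had 10.71 and 12.12 in leukaemic replicates 1 and 2, against 12.19 in each wild type mouse (set 10403063). Leukaemic replicate 1 was 2.78-fold below the wild type mean, and leukaemic replicate 2 differed from it by -0.064. The set that joins Igha with Ighv3-6 had 9.21 and 10.94 in leukaemic replicates 1 and 2, against 11.18 and 10.97 in wild type, a 3.66-fold shortfall in leukaemic replicate 1. Ighg3 set 10403046 read 8.38 and 9.79 in leukaemic replicates 1 and 2, against 9.53 and 9.17 in wild type. Here leukaemic replicate 2 was the highest of the 4 mice, by 0.26 over the next. The set with Ighg3, Igha and 2 heavy chain V symbols read 10.93 and 11.89 in leukaemic spleens, against 11.88 and 12.04 in wild type. Across the 6 heavy chain sets, group differences ran from -1.0 to -0.26 (SE 0.30 to 0.55), with 0 called and 0 of 6 at an unadjusted p under 0.05. Wild type replicates differed by at most 0.60 on these sets. The median heavy chain level was 9.86 and 11.28 in leukaemic replicates 1 and 2, against 11.37 and 11.30 in wild type replicates 1 and 2.

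Lambda light chain sets had the most negative class median, and both placed both leukaemic mice below both wild type mice. Set 10438415 (Iglv1, Iglc1 and Iglv2) read 10.24 and 11.88 in leukaemic replicates 1 and 2, against 12.48 and 12.37 in wild type replicates. The groups did not overlap, and the difference was -1.36 (SE 0.47, 95% interval -2.50 to -0.23, limma adjusted p = 0.18). Leukaemic replicate 1 was 4.53-fold below the wild type mean there, its largest shortfall among the 20 sets. Set 10438405, which has the same 3 symbols, read 11.20 and 12.55 in leukaemic spleens, against 12.72 and 12.86 in wild type. Its difference was -0.92 (SE 0.40, limma adjusted p = 0.27). The 2 sets share an accession, so they are not separate evidence on lambda transcripts. Groups without overlap, leukaemic lower, were found on 9 of the 20 sets, beside 25.5% of all probe sets.

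Kappa sets with the constant gene symbol were 3, all annotated with Igkv4 family V genes as well, and in each of them leukaemic replicate 1 alone was low. Set 10545198, the brightest, had 11.05 and 12.41 in leukaemic replicates 1 and 2, against 12.16 and 12.27 in wild type. Leukaemic replicate 2 was the highest of the 4 mice on it. Set 10545196 had 8.72 and 10.46 in leukaemic spleens, against 9.85 and 9.82 in wild type, so that leukaemic replicate 1 differed from the wild type mean by -1.11 and leukaemic replicate 2 by 0.63. Set 10545187 had 10.04 and 11.67 in leukaemic spleens, against 11.89 and 11.54 in wild type. Group differences for the 3 were -0.48 (SE 0.40), -0.24 (SE 0.50) and -0.86 (SE 0.48), with limma adjusted p from 0.41 to 0.88. The median difference of this class was -0.48, and without leukaemic replicate 1 it was 0.20.

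Among the 9 kappa sets with V symbols and no constant gene symbol, 7 had a lower and 2 a higher leukaemic mean. Igkv6-20 read 10.96 and 11.68 in leukaemic replicates 1 and 2, against 12.27 and 12.18 in wild type. Both leukaemic mice were below both wild type mice, and the difference of -0.91 (SE 0.24, 95% interval -1.49 to -0.33, limma adjusted p = 0.11) had the smallest p of the 20 sets. Set 10538880, which carries Igkv9-120 and Igkv1-117, read 10.85 and 11.66 in leukaemic spleens, against 12.32 and 12.09 in wild type, again without overlap (-0.95, SE 0.27, limma adjusted p = 0.12). With the lambda set 10438415, these were the 3 sets at an unadjusted p under 0.05, and on each of them leukaemic replicate 2 differed from the wild type mean by -0.55. A second set with the same symbols, 10538921, which shares 7 accessions with 10538880, had 11.84 and 12.66 in leukaemic spleens, against 12.82 and 12.89 in wild type (-0.60, SE 0.27).

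On the other V gene sets of the kappa locus, apart from Igkv8-30, leukaemic replicate 1 was the lowest mouse. Leukaemic replicate 2 was below both wild type mice on some of them. Igkv10-96 had 10.46 and 11.90 in leukaemic replicates 1 and 2, against 11.85 and 11.90 in wild type (set 10545173), and the set with Igkv10-96 and Igkj1 had 11.24 and 12.45, against 12.49 and 12.56, with both leukaemic mice below both wild type mice. The set with Igkv4-59 and Igkv4-80 had 8.20 and 10.30 in leukaemic spleens, against 10.36 and 10.01 in wild type. That was the widest gap between the leukaemic mice among the 20 sets, 4.31-fold. Igkv1-133 with Igkv1-135 had 11.46 and 12.55 in leukaemic spleens, against 12.76 and 12.85 in wild type, with both leukaemic mice below both wild type mice (-0.80, SE 0.33, limma adjusted p = 0.25).

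Igkv8-30 and the set of Igkv6-14 and Igkv6-15 had the higher leukaemic means. They were among the 6 sets on which leukaemic replicate 2 was above both wild type mice. Igkv8-30 read 7.97 and 9.68 in leukaemic replicates 1 and 2, against 7.47 and 7.86 in wild type. Leukaemic replicate 2 stood 1.72 above the next highest mouse, which made Igkv8-30 the 1 of 20 sets at which an array exceeded the 3 others by at least 1, against 0.245% of all probe sets for that mouse. Leukaemic replicate 1 was above both wild type mice as well, so the groups did not overlap, which on the higher side held for 1 of the 20 sets and for 23.2% of all probe sets. The group difference was 1.16 (SE 0.50, 95% interval -0.050 to 2.37, limma adjusted p = 0.27). Without leukaemic replicate 1 the difference was 2.02 and was called. Igkv6-14 with Igkv6-15 read 10.89 and 12.004 in leukaemic spleens, against 11.00 and 11.56 in wild type, with leukaemic replicate 2 highest by 0.44 (0.17, SE 0.37, limma adjusted p = 0.89). Its wild type mice differed by 0.56, about the size of that excess.

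**Figure D2:**
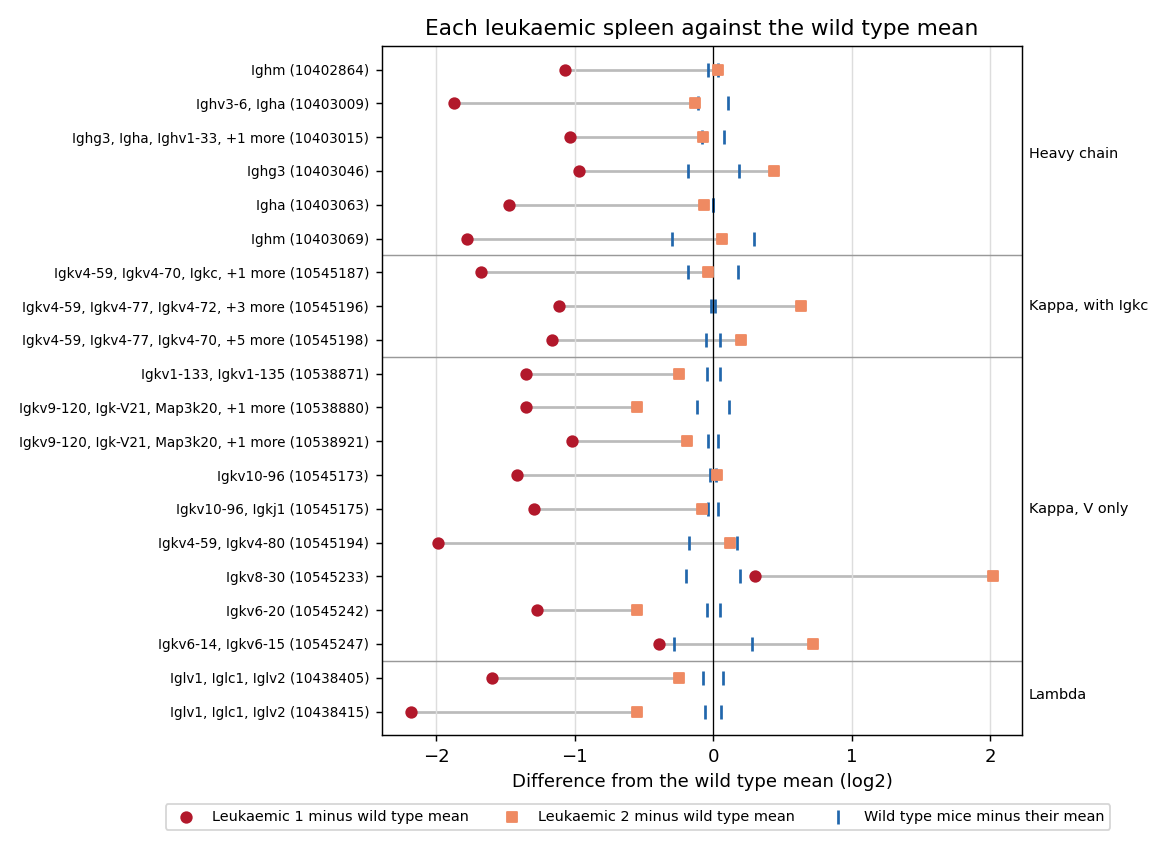
Difference of each leukaemic mouse from the wild type mean (log2) for the 20 probe sets, with the wild type mice as ticks. Leukaemic replicate 1 reaches -2.18 on a lambda set and leukaemic replicate 2 reaches 2.02 on Igkv8-30, and a grey line joins the leukaemic mice of each row.

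The kappa V genes can also be read by their position along the locus, for which no test was made. In the gene table's order, Igkv1-135, Igkv1-133, Igkv9-120 and Igkv1-117 lie farthest from Igkc, and Igkv8-30, Igkv6-20, Igkv6-15 and Igkv6-14 lie nearest to it among the named V genes. The sets with a higher leukaemic mean, Igkv8-30 and Igkv6-14 with Igkv6-15, flank Igkv6-20, which had a difference of -0.91. In the far group the differences were -0.80, -0.95 and -0.60. Between the far and near groups they were -0.69 on both Igkv10-96 sets and -0.93 on the Igkv4 set without Igkc. By their V symbols, both sets with a higher leukaemic mean were thus among the 3 sets nearest to Igkc, and the third of these was lower. The difference of Igkv6-14 with Igkv6-15 was only 0.17 (SE 0.37). Igkv10-96 set 10545175 also carries Igkj1, which lies nearer to Igkc than the named V genes. This reading by position was not planned in advance.

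The gap between the leukaemic mice ran the same way on every one of the 20 sets. Leukaemic replicate 2 exceeded leukaemic replicate 1 on 20 of 20, against 44.5% of all probe sets, by 1.65-fold to 4.31-fold with a median of 2.61-fold. The gap was at least 1 (log2) on 16 of 20, against 0.935% of all probe sets. Leukaemic replicate 1 lay at least 1 below the 3 other arrays on 13 of 20, against 0.481% of all probe sets, and it was the lowest of 4 on 19, against 23.0%. The wild type mice differed by no more than 0.60 on any of the 20, in either direction. With 1 array per mouse, the gap between the leukaemic mice has no test, and the sets that share accessions are not separate observations of it. Sex, age and spleen weight also differed between these 2 mice.

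**Figure D3:**
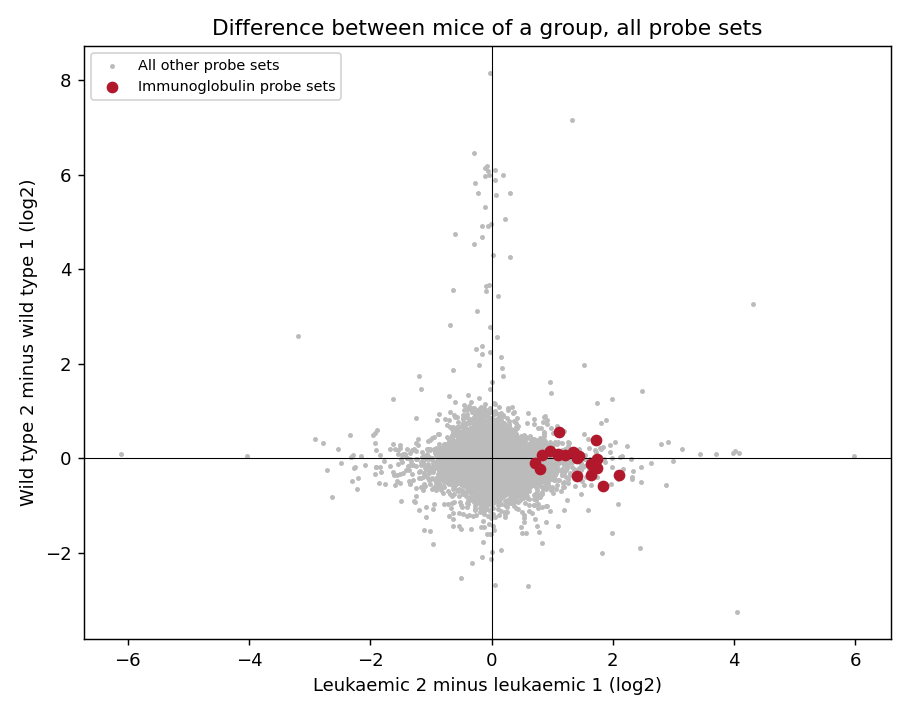
Difference between the 2 leukaemic mice (x axis, log2) and between the 2 wild type mice (y axis, log2) for all probe sets, with the 20 immunoglobulin sets in red. The red points lie between 0.72 and 2.11 on the x axis and between -0.60 and 0.56 on the y axis.

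Despite that gap, immunoglobulin sets were among the brighter probe sets of every array. Above the array median lay 19 of 20 in leukaemic replicate 1, 20 in leukaemic replicate 2 and 19 in each wild type mouse. Above the 95th percentile of the array lay 3 in leukaemic replicate 1 and 14 in leukaemic replicate 2, against 13 and 14 in wild type replicates 1 and 2. The top levels of the 20 sets were 11.84 and 12.66 in leukaemic replicates 1 and 2, against 12.82 and 12.89 in wild type replicates 1 and 2. The highest value of any probe set on an array was 13.68 to 13.69. The set below the median of leukaemic replicate 1 was Ighm set 10403069, at percentile 28.7, against 61.0 and 52.4 in wild type replicates 1 and 2. The set below the median of both wild type mice was Igkv8-30, at percentiles 50.1 and 76.7 in leukaemic replicates 1 and 2, against 42.1 and 47.3 in wild type.

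Genes that build or partner the receptor were read from lists fitted with all 4 arrays. Without wild type replicate 2, limma called 0 of all probe sets, so every call on these lists and the later ones is lost, while 3698 probe sets had an unadjusted p under 0.05. All 4 genes of the surrogate light chain list (Igll1, Vpreb1, Vpreb2 and Vpreb3) rose. The rise of Igll1 was 5.47 (SE 0.14, limma adjusted p = 0.00014), with 13.02 and 12.85 in leukaemic replicates 1 and 2, against 7.44 and 7.48 in wild type. Of 11 V(D)J recombination genes 4 rose (Rag1, Rag2, Xrcc6 and Lig4) and 0 fell. On these genes the leukaemic mice were close together, with gaps of 0.17 or less for the surrogate light chain list and of 0.36 or less for Rag1 and Rag2. Dntt, the polymerase that adds untemplated bases at V(D)J joins, was an exception: it read 6.51 and 8.05 in leukaemic replicates 1 and 2, against 6.46 and 6.54 in wild type, and was not called (limma adjusted p = 0.42). Among 10 signalling partners of the receptor 1 fell, Cd22 (an inhibitory co-receptor, -0.84, SE 0.14), and 0 rose. Of 14 transcription factors that act on immunoglobulin loci 3 rose, Pou2af1, Ebf1 and Irf4, by 0.92, 1.11 and 1.02, and 0 fell. Ikzf3, of the Ikaros family and in the same list, read 10.52 and 11.62 in leukaemic replicates 1 and 2, against 11.55 in each wild type mouse. Of 7 class switching and hypermutation genes 1 rose, the exonuclease gene Exo1 (1.11, SE 0.18).

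Several antibody secretion genes were lowest in leukaemic replicate 1, as the immunoglobulin sets were. Jchain, which joins the units of polymeric IgM and IgA, read 10.86 and 12.15 in leukaemic replicates 1 and 2, against 12.04 and 12.22 in wild type (-0.62, SE 0.38, limma adjusted p = 0.46). Prdm1, the plasma cell regulator Blimp-1, read 7.93 and 9.14, against 8.64 and 8.67, and Derl3, of the endoplasmic reticulum degradation pathway, read 8.47 and 9.67, against 9.68 and 10.25. Jchain, Prdm1 and Derl3 had the widest gaps between the leukaemic mice in the plasma cell list. Of its 11 measured genes, 8 were lowest in leukaemic replicate 1, against 23.0% of all probe sets. Mzb1 was not, at 11.66 and 12.23 in leukaemic replicates 1 and 2, against 11.51 and 11.58 in wild type. Fkbp11 was not either (6.76 and 6.82, against 6.55 and 6.99), and Slamf7 rose (1.12, SE 0.14). The list's summed level (log2 of the sum of linear values) was 13.82 and 14.40 in leukaemic replicates 1 and 2, against 14.11 and 14.25 in wild type.

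Many markers of other cell types also stood lowest in leukaemic replicate 1, a position it had on 23.0% of all probe sets. That held for 11 of 11 mature B cell genes, with summed levels of 13.83 and 14.27 in leukaemic replicates 1 and 2, against 15.10 and 14.82 in wild type. It also held for 11 of 11 T cell genes (11.92 and 12.71, against 14.02 and 13.63), 7 of 8 natural killer cell genes (10.35 and 10.90, against 12.28 and 11.86) and 8 of 8 neutrophil genes (12.94 and 13.67, against 14.27 and 14.30). For macrophage genes it was 5 of 8 (13.67 and 13.73, against 14.38 and 14.21) and for erythroid genes 1 of 6 (13.98 and 13.90, against 14.07 and 14.61). In these lists 1 mature B cell gene, 4 T cell genes, 3 natural killer cell genes and 1 neutrophil gene fell, and 0 macrophage and 0 erythroid genes did. In the mature B cell, T cell and natural killer cell lists leukaemic replicate 2 was below both wild type mice in summed level, while on immunoglobulin sets its median difference from them was -0.052. The part of these cell types in the immunoglobulin values was not tested.

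**Figure D4:**
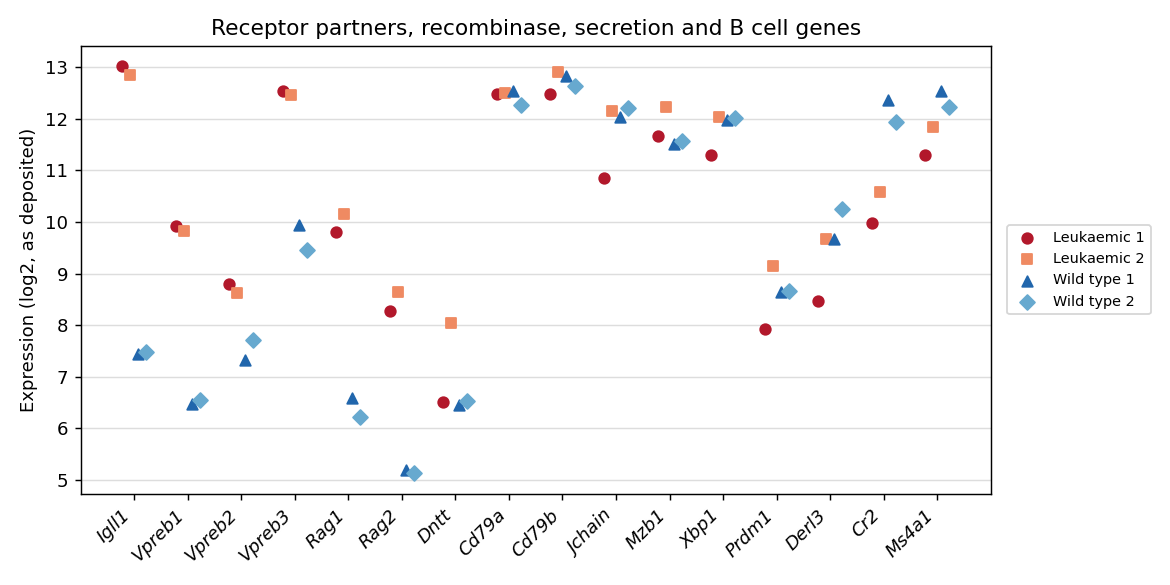
Deposited log2 expression of 16 genes of the receptor, recombinase, antibody secretion and mature B cells, 1 point per mouse. The leukaemic mice nearly coincide on Igll1 and Vpreb1, and they differ by 1.29 on Jchain, 1.21 on Prdm1 and 1.54 on Dntt.

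Receptors and carriers of antibody were led by Fcmr, the IgM receptor of lymphocytes. Fcmr read 9.33 and 9.99 in leukaemic replicates 1 and 2, against 11.85 and 11.50 in wild type, and was the 1 of 9 measured genes of that list that fell (-2.01, SE 0.24, limma adjusted p = 0.025). Fcer2a, the low-affinity IgE receptor CD23 of mature B cells, read 9.87 and 10.59, against 11.69 and 11.38 (-1.30, SE 0.25, limma adjusted p = 0.064). Fcgr4, a receptor for IgG on myeloid cells, read 10.15 and 9.75, against 9.50 and 8.88 (0.76, SE 0.24, limma adjusted p = 0.16).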

How the data were processed

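Expression was measured in 4 mouse spleens with 1 array each. The authors deposited log2 values per probe set. The submitters' processing notes name RMA, R 2.15.0 and limma 3.12.1, with no settings or order, and no genome build is given in the sources used here. Groups and replicate numbers come from the sample titles, and the design text calls the replicates individual mice.

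The leukaemic minus wild type difference was fitted by limma 3.58.1 (R 4.3.3; lmFit and eBayes without covariate or filter) over all 23309 probe sets, with Benjamini-Hochberg adjustment over all of them and calls at adjusted p under 0.05. Unlike a fit per gene, this keeps sets with several symbols. Fitted SEs and 95% intervals are moderated. Summaries used Python 3.11.15. The fit was tested on simulated data. Precision is limited by the number of arrays.

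The 20 members, the 14 context lists and the naming rule were chosen with earlier results of these data known. The rule names every constant region set, the largest differences per chain and sets at which 1 mouse exceeded the others by 1; with 20 sets, all are described. Context genes are read from the brightest set with 1 symbol. Promoters were not used here, as the sequence table held 0 of the members' genes. Alternatives covered centring, quantile normalization, a dim filter, the variance prior, sets with 1 symbol, the replicate number as a block and each mouse left out.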

Additional observations from a re-analysis of the deposited data

How the results depend on the processing

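Counts over all probe sets moved with the processing. Against 253 higher and 138 lower, quantile normalization gave 75 and 13, a robust prior 487 and 396, and each mouse left out in turn 0 to 472 higher and 0 to 631 lower, with 0 and 0 without wild type replicate 2. Among the 20 immunoglobulin sets, leaving out a mouse gave 0 to 1 higher and 0 to 18 lower. The replicate number as a block gave 780 higher and 825 lower over all probe sets, and 1 higher and 5 lower among the 20. Deviations of same-numbered mice from the group means correlated at -0.080 over all probe sets. With 2 mice a group, that value cannot show whether same-numbered arrays had anything in common beyond the number. The other settings called 0 of the immunoglobulin sets they kept, which were only 7 in the fit limited to sets with 1 symbol. The median difference of the 20 sets ran from -1.32 to -0.052 with a mouse left out, and that of kappa V sets from -1.29 to -0.081. Of the single sets, 8 changed sign with a mouse left out. Lowest (without leukaemic replicate 2) and highest (without leukaemic replicate 1) differences were -1.07 and 0.033 for Ighm set 10402864, -1.78 and 0.062 for Ighm set 10403069, -0.97 and 0.44 for Ighg3, -1.41 and 0.026 for Igkv10-96, -1.99 and 0.12 for Igkv4-59 with Igkv4-80, -1.11 and 0.63 for Igkc set 10545196, -1.17 and 0.20 for Igkc set 10545198, and -0.39 and 0.72 for Igkv6-14 with Igkv6-15, which also turned to -0.11 without wild type replicate 1. Each fit without a mouse has 1 array in a group and assumes that it varies like the other group.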

Other observations

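Other genes shared the low reading of leukaemic replicate 1. On 112 probe sets that mouse lay at least 1 (log2) below the 3 other arrays, and 13 of them (11.6%) were immunoglobulin sets. Of 79 further sets with a single symbol, chosen here after their values were seen, the largest gaps were those of Pilrb1, Dapl1, Mctp2, Retnlg and Cd28. Pilrb1, a paired immunoglobulin-like receptor gene, read 6.54 and 9.01 in leukaemic replicates 1 and 2, against 10.51 and 10.32 in wild type. Retnlg, a resistin-like gene of neutrophils, read 9.13 and 11.11, against 11.29 in each wild type mouse. Cd28, the T cell costimulatory receptor, read 7.16 and 8.94, against 10.03 and 9.48.

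Outside the Y chromosome, the widest excess of leukaemic replicate 2 among sets with a single symbol was that of Fcrl6, an Fc receptor-like gene, at 6.97 and 11.04 in leukaemic replicates 1 and 2, against 6.24 and 6.36 in wild type. This gene was likewise chosen after its value was seen.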
